A study of Mus musculus with 24 samples.

Results

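The genes described here lie around the loci of Mrtfa and Mrtfb, the myocardin-related transcription factors, which the deposited count table lists under their older symbols Mkl1 (chr15:81012281-81190757) and Mkl2 (chr16:13256481-13417529), in mm10. Genes within about 10 Mb of either locus were taken when at least 6 of the 24 libraries held 10 or more counts. Both loci themselves, 3 further named genes and genes whose symbols start with Nduf, Rpl or Rps were left out, 11 rows in all. Of the 606 remaining rows in these windows, 228 were under the count minimum and 378 were kept, of 23337 rows in the table. Of these 378 flanking genes, 216 lie around Mrtfa on chromosome 15 and 162 around Mrtfb on chromosome 16, and 376 could be tested. The 2 untested genes, Socs1 and Car15, stayed at or under 1.30 and 1.5 CPM (read counts scaled to the effective size of each library). For Lypd2, Gm10345, Lgals2 and Socs1, all libraries with 10 or more counts were of 1 genotype, so the main counts are also given without them. Genes with a few such libraries in the other genotype stay in those counts. Arc is one of these, with 75 reads over the 12 intact and 1990 over the 12 mutant libraries. It met the minimum mainly through the mutant libraries, where it is high.

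Polyadenylated RNA was measured in sorted cardiomyocytes of 4-week-old mice that had received an adeno-associated virus (AAV) on postnatal day 1. Every group carried the Cas9 nuclease as Rosa-Cas9/Cas9. Ctrl and MKO mice had no further genotype in the labels and are called Mrtf-intact here, with Ctrl given AAV-Cre and MKO given AAV-Myocd-sgRNA, a guide RNA virus against the related factor Myocd. DKO and TKO mice carried the genotype written as Mrfta-/-; Mrtfb-F/F; Rosa-Cas9/Cas9, a constitutive Mrtfa loss with floxed Mrtfb, and are called Mrtf-mutant, with DKO given AAV-Cre and TKO given AAV-Myocd-sgRNA. The labels name neither the promoter of Cre nor Cre in the guide virus, and give no strain, breeding history or statement that the 6 libraries of a group are separate animals, so p-values measure the spread between libraries.

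MRTF proteins are held in the cytoplasm by monomeric actin and, when released, enter the nucleus and bind serum response factor on CArG boxes in the promoters of actin cytoskeleton and contractile genes. Genes next to a targeted allele are inherited together with it, so mutant and intact mice can differ in the DNA around the allele as well as in the allele. In these data every mutant library carries both altered loci and whatever DNA is linked to them, so that loss of Mrtf and linked DNA cannot be told apart. The question put here was how much RNA of the flanking genes differed with the Mrtf genotype, and at which distances from the loci.

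Promoters were examined because 2 flanking genes, Lgals2 and Rtn4r, were expressed at very different levels in mutant and intact libraries. RefSeq promoter entries on GRCm38.p6 matched 249 of the 378 genes, with 310 entries. The 250 bases upstream of their start sites are shown 5′ to 3′ on each gene's own strand, with every GGGCGG or its reverse complement CCGCCC, the core of the GC box that Sp1-type factors bind, in capitals. Bases after the start site of both entries were found in the gene's own GENCODE transcripts as given and not as their reverse complement. The Lgals2 sequence is chr15:78855530-78855779 on the minus strand and the Rtn4r sequence is chr16:18127392-18127641 on the plus strand.
Lgals2: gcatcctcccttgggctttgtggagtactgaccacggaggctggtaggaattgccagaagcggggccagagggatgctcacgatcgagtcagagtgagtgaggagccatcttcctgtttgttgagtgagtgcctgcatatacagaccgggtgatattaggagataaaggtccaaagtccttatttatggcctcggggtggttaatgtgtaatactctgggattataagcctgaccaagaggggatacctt
Rtn4r: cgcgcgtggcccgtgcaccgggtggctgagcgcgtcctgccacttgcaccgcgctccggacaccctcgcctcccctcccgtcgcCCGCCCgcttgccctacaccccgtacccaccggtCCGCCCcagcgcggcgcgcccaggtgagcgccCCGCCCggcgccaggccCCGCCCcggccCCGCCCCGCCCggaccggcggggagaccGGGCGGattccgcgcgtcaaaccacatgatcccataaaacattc
The Rtn4r sequence holds 7 GC box cores, of which a pair overlaps by 1 base, and has a GC content of 77.2%, while the Lgals2 sequence holds none and has 50.8%. Neither holds a CArG box or TATAAA on either strand. Across the entries of flanking genes, 62.9% held a GC box core, 5.81% TATAAA and 0.323% a CArG box, the last being that of Gga1 alone. The same shares over all 32851 RefSeq promoter windows were 32.7%, 12.4% and 1.47%. Those windows were not filtered by expression and the flanking genes were, so these shares are not a like comparison. Of the 49 entries of called flanking genes, 61.2% held a GC box core, 2.04% TATAAA and 0 a CArG box. These entries covered 42 of the 68 genes called in mutant against intact libraries. The other called genes, among them Arc, Jrk, Lypd2 and Lynx1, had no entry and were not examined. A match of letters is only a description of the window.

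Total counts per library ranged from 5830185 in DKO 1 to 17184517 in TKO 3. DKO 1 stood apart: its most abundant gene was Actc1, and that of the other 23 libraries was Myh6. Mkl1 lay between 4.81 and 11.9 CPM in intact and between 1.33 and 2.77 CPM in mutant libraries, and Mkl2 between 44.1 and 59.2 and between 26.6 and 42.5 CPM, so that no mutant library overlapped an intact one for either. Myocd lay between 120 and 323 CPM over all groups, and read counts do not check whether the guide edited it. All 9 cardiomyocyte markers were detected, and summed to between 113000 and 137000 CPM in Ctrl and between 92600 and 116000 in MKO. In DKO they summed to between 91700 and 109000 CPM and in TKO to between 83300 and 108000. DKO and TKO thus lay below Ctrl throughout and overlapped MKO. Myh6 was the 1 of these markers that was called, with a fall. Sex-linked transcripts marked 8 of 12 intact and 4 of 12 mutant libraries as male. By group these were 4 of 6 in Ctrl, 4 of 6 in MKO, 1 of 6 in DKO and 3 of 6 in TKO.

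In the 12 mutant against the 12 intact libraries, 68 of 376 flanking genes differed at an adjusted p under 0.05 (edgeR quasi-likelihood test, Benjamini-Hochberg adjustment over all 12281 genes tested). That is 18.1% of the flanking genes, where 10.8% of all genes tested differed, and over single autosomes that share lay between 6.73% and 18.6%. Higher in the mutants were 36 flanking genes (9.57%, with 6.08% of all genes) and lower 32 (8.51%, with 4.75%). Around Mrtfa 40 of 216 genes differed (18.5%), and around Mrtfb 28 of 160 (17.5%). Without the genes that reached the count minimum through 1 genotype, 66 of 373 differed (17.7%). With the sex of the library as a further term, added after seeing the data, the number was 76, where 13% of all genes differed.

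Large differences made up a small part of these calls. At least 2-fold were 14 flanking genes, 3.72% of those tested, where 1.24% of all genes reached that size, and 12 of 373 (3.22%) without the genes that met the count minimum through 1 genotype. The 7 higher in the mutants (1.86%, with 0.847% of all genes) were Lgals2, Arc, Nlrc3, Pnpla3, Fbln1, 2310015D24Rik and Scube1, and the 7 lower (1.86%, with 0.391%) were Lypd2, Rtn4r, Snn, Sstr3, Lynx1, 4930572J05Rik and Pdgfb. The levels of the 12 mutant and the 12 intact libraries did not overlap for 7 flanking genes (1.86%, with 0.309% of all genes). Lgals2 and Lypd2 are among them. Both met the count minimum only through the genotype where they were high, so their selection was not independent of this difference. Without the genes of that kind the number was 5 of 373 (1.34%), with 1 above (0.268%) and 4 below (1.07%). Lgals2 and Pla2g6 lay above every intact library (0.532%, with 0.0896% of all genes), and Lypd2, Lynx1, Snn, Rtn4r and St6gal1 lay below every intact library (1.33%, with 0.22%). The median level of the flanking genes in intact libraries was 8.09 RPKM, with 7.03 RPKM over all genes that met the same count minimum.

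**Figure D1:**
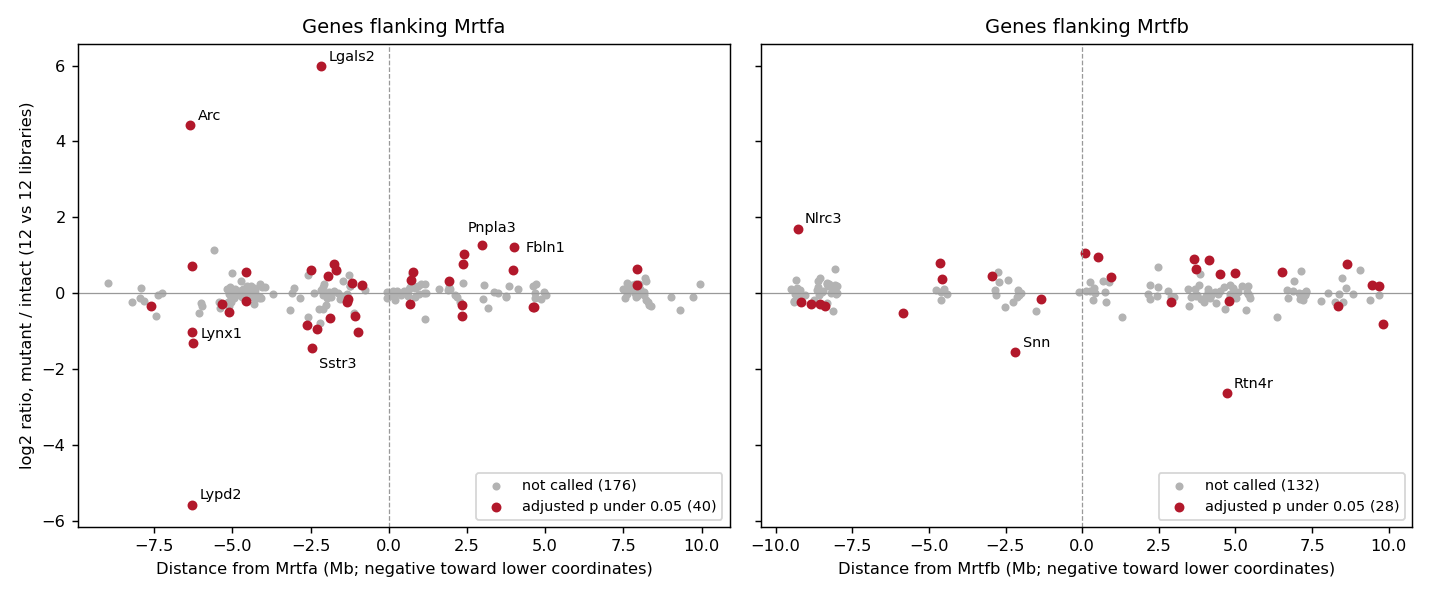
Fitted log2 ratio of mutant to intact libraries (12 against 12) for the tested genes around Mrtfa (left) and Mrtfb (right), by distance from the locus in Mb. Red points are the 40 and 28 genes called at an adjusted p under 0.05. The largest ratios sit at Lgals2, Arc and Lypd2 on the side of lower coordinates of Mrtfa, 2.16 to 6.34 Mb away.

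Around Mrtfa, 5 adjacent flanking genes within 83.9 kb, about 6.3 Mb from the locus, all differed: Arc, Jrk, 4930572J05Rik, Lypd2 and Lynx1. Directions were mixed, with Arc and Jrk higher and the other 3 lower in the mutants. Arc (chr15:74669083-74672570), known from neurons for trafficking of glutamate receptors at synapses, stood at 0.205 to 1.49 CPM in Ctrl (median 0.601), 0.323 to 1.21 in MKO (median 0.496), 8.06 to 35.8 in DKO (median 18.9) and 0.552 to 17.6 in TKO (median 7.62). TKO 1 lay among the intact libraries at 0.552 CPM, and the other 5 TKO libraries started at 4.67 CPM. Arc was higher in the mutants by 4.43 ± 0.42 on the log2 scale (SE, adjusted p = 7.74e-08), by 4.90 ± 0.60 in DKO against Ctrl and by 3.96 ± 0.59 in TKO against MKO. Without TKO 1 the pooled value was 4.55 ± 0.32.

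Lynx1 (chr15:74747856-74752979), a membrane-tethered modulator of nicotinic acetylcholine receptors, is the most abundant of the 5 genes per kilobase, at a mean of 79.7 RPKM in intact libraries. It ranged from 256 to 356 CPM in Ctrl (median 329), 258 to 376 in MKO (median 300.3), 69.7 to 151 in DKO (median 132) and 88.7 to 168 in TKO (median 131). Every mutant library lay below every intact library. Lynx1 fell by 1.32 ± 0.12 on the log2 scale in the mutants (adjusted p = 3.73e-08), by 1.42 ± 0.17 in DKO against Ctrl and by 1.23 ± 0.17 in TKO against MKO.

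Lypd2 (chr15:74732252-74734313), another member of the Ly6 and uPAR family of small lipid-anchored proteins, was weakly expressed. The 12 intact libraries together held 123 reads, at 0.974 to 1.39 CPM in Ctrl (median 1.22) and 0.703 to 1.05 in MKO (median 0.807), and the 12 mutant libraries held 2 reads, both in TKO 1. This was 68.2-fold lower in the mutants, with an exact 95% interval of 18.5 to 569 that covers counting error only (adjusted p = 2.7e-08). DKO held no read and was at least 25.1-fold lower than Ctrl, taking 3 reads over the group as the limit for a count of 0. TKO 1 was thus the library closest to the intact ones for both Arc and Lypd2, while its 143 CPM of Lynx1 and 11.8 CPM of Jrk lay within the range of the other mutant libraries.

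Jrk (chr15:74702412-74709322), which encodes a nuclear DNA-binding protein related to the centromere protein CENP-B, rose from medians of 6.84 CPM in Ctrl (5.48 to 9.62) and 8.06 in MKO (7.13 to 12) to 12.9 in DKO (12.2 to 15.6) and 12.9 in TKO (9.48 to 14.2). Its difference was 0.72 ± 0.10 (adjusted p = 3.3e-05), and MKO and TKO overlapped. Exons of Jrk overlap those of 4933427E11Rik, and the libraries do not mark strand, so their reads cannot be told apart. The unnamed transcript 4930572J05Rik fell by 1.02 ± 0.17 (adjusted p = 2.42e-04), and lay between 4.87 and 9.16 CPM in Ctrl, between 5.52 and 8.40 in MKO, between 2.20 and 7.59 in DKO and between 1.92 and 4.56 in TKO. DKO and Ctrl overlapped for this transcript only through DKO 1, at 7.59 CPM, and TKO and MKO did not overlap. Without DKO 1 and Ctrl 3 it fell by 1.17 ± 0.22 in DKO against Ctrl and by 1.16 ± 0.20 in TKO against MKO.

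**Figure D2:**
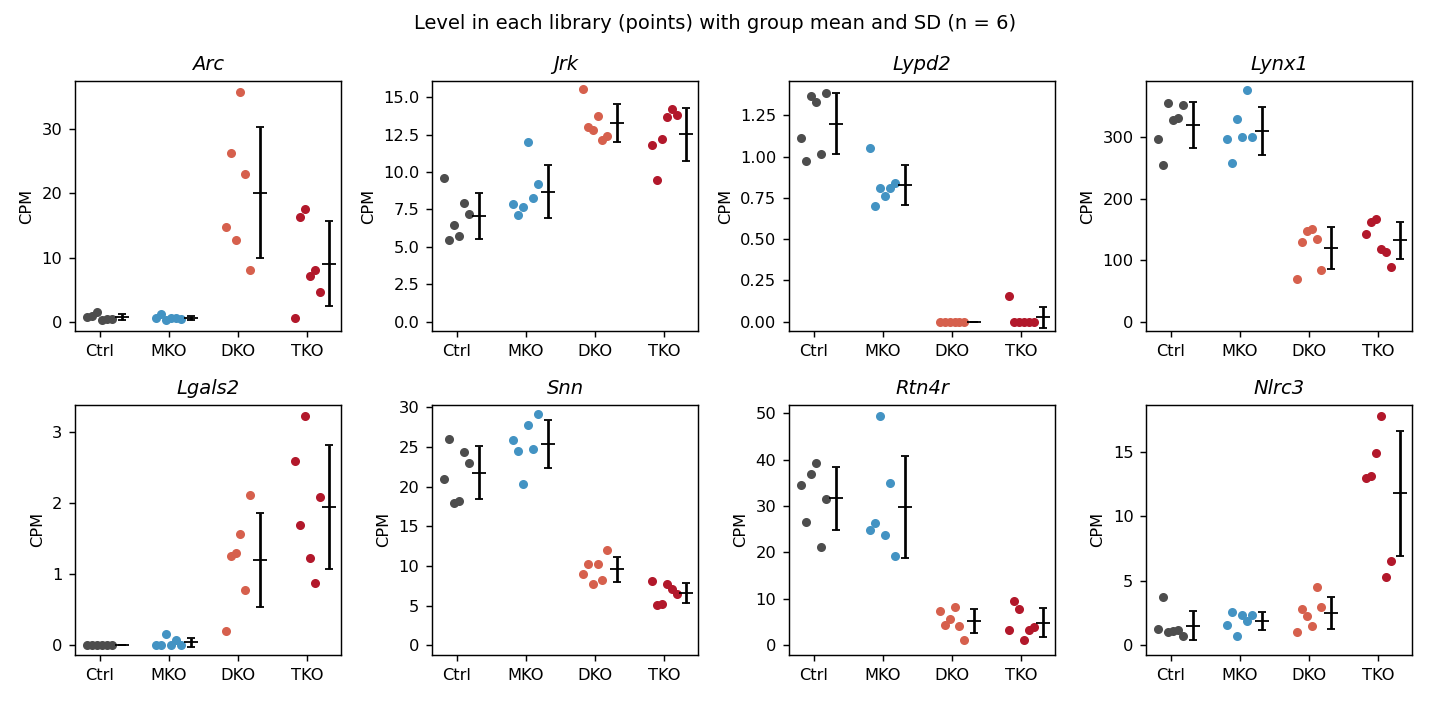
CPM in each library (points) and group mean with SD (n = 6) for 8 flanking genes in Ctrl, MKO, DKO and TKO, each panel on its own linear axis. Lynx1, Snn and Rtn4r are lower in all 12 mutant libraries, Lgals2 is at or close to 0 in intact libraries, TKO 1 is the single low mutant library for Arc, and Nlrc3 is highest in TKO.

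A further 4 flanking genes of Mrtfa, between 1.68 and 2.47 Mb from it, differed in DKO against Ctrl: Lgals2, Sstr3, Micall1 and Pla2g6. Lgals2 (chr15:78850860-78855529), which encodes galectin-2, a lectin that binds beta-galactosides, had no read in Ctrl and 3 reads in MKO, in 2 libraries. Every mutant library held it, at 0.200 to 2.12 CPM in DKO (median 1.28) and 0.871 to 3.22 in TKO (median 1.89). The 238 mutant reads against 3 intact reads were 71.5-fold higher (exact 95% interval 24.2 to 349, counting error only, adjusted p = 3.29e-07), and DKO was at least 24.5-fold higher than Ctrl. The shallow library DKO 1 was the lowest mutant at 0.200 CPM. Exons of Lgals2 overlap those of Cdc42ep1, which differed by only 0.08 ± 0.14 between mutant and intact libraries (62.0 and 65.0 CPM in the intact and mutant means, adjusted p = 0.764).

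Sstr3 (chr15:78537015-78544345), a G protein-coupled receptor for somatostatin, was lower in the mutants, by 1.45 ± 0.28 on the log2 scale pooled (adjusted p = 0.00117). Its values were 1.02 to 3.11 CPM in Ctrl (median 1.90), 0.930 to 2.02 in MKO (median 1.41), 0.163 to 0.999 in DKO (median 0.738) and 0.190 to 1.17 in TKO (median 0.577). DKO lay below Ctrl throughout, and TKO overlapped MKO, where the difference of -1.09 ± 0.39 did not pass (adjusted p = 0.0612). Micall1 (chr15:79108983-79136901), a scaffold of recycling endosomes, fell by 0.66 ± 0.09 (adjusted p = 1.43e-05). Its Ctrl libraries lay between 151 and 208 CPM, those of MKO between 172 and 229, those of DKO between 74.7 and 126 and those of TKO between 105 and 158, and mutant and intact libraries overlapped only between TKO and Ctrl. Its exons overlap those of 1700088E04Rik.

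Pla2g6 (chr15:79286228-79328371), a calcium-independent phospholipase A2 that remodels membrane lipids, lay at 13.9 to 16.7 CPM in Ctrl (median 15.9), 13.4 to 17.9 in MKO (median 15.3), 20.2 to 29.5 in DKO (median 22.3) and 18.3 to 27.6 in TKO (median 25.2). The mutant libraries were all above the intact ones, though by a small margin. It rose by 0.60 ± 0.08 (adjusted p = 1.53e-05), by 0.59 ± 0.11 in DKO against Ctrl and by 0.61 ± 0.11 in TKO against MKO.

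Around Mrtfb, Snn, Rtn4r and Emp2 differed under both viruses. Snn (chr16:11066298-11074986, 2.18 Mb from the locus) encodes stannin, a small membrane protein linked to the toxicity of organotins. It ranged from 17.9 to 26.1 CPM in Ctrl (median 22), 20.3 to 29.1 in MKO (median 25.3), 7.75 to 12.1 in DKO (median 9.60) and 5.07 to 8.12 in TKO (median 6.74). Every mutant library lay below every intact library, and Snn had the smallest adjusted p of all flanking genes, with a fall of 1.56 ± 0.10 (adjusted p = 9.99e-11). The fall was 1.18 ± 0.14 in DKO against Ctrl and 1.94 ± 0.14 in TKO against MKO, a difference of -0.77 ± 0.19 between the viruses that did not pass (adjusted p = 0.0731). Exons of Snn overlap those of Txndc11, whose difference was -0.09 ± 0.07 (adjusted p = 0.441).

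Rtn4r (chr16:18127706-18152408, 4.71 Mb from Mrtfb) encodes the Nogo receptor, known for restraining axon growth. It stood at 21.3 to 39.4 CPM in Ctrl (median 33.1), 19.2 to 49.4 in MKO (median 25.6), 1.14 to 8.32 in DKO (median 5.05) and 1.14 to 9.48 in TKO (median 3.61). The highest mutant library was below the lowest intact one. The fall was 2.63 ± 0.26 (adjusted p = 1.89e-07), with 2.64 ± 0.38 in DKO against Ctrl and 2.61 ± 0.37 in TKO against MKO. Emp2 (chr16:10281749-10313968), a tetraspan protein of the cell surface, rose by 0.45 ± 0.08 (adjusted p = 6.24e-04). The Ctrl median was 92.3 CPM (69.4 to 102), that of MKO 108 (89.2 to 116), that of DKO 129 (103 to 141) and that of TKO 137 (100.3 to 163). DKO lay just above Ctrl, and TKO overlapped MKO.

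Arc, Lynx1 and Rtn4r are best known from neurons. Of 6 markers of glia and neurons, 1 was abundant enough to be tested and it was not called. The 6 summed to between 2.04 and 5.18 CPM in Ctrl and between 1.94 and 3.41 in MKO. In DKO they summed to between 2.69 and 6.43 CPM and in TKO to between 4.44 and 6.78. TKO thus lay above MKO throughout and DKO overlapped Ctrl, and none of the 6 was at 0 in all libraries. The part of such cells in these results was not tested.

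In DKO against Ctrl, which are both Cre virus groups, 11 flanking genes differed, 2.93% of those tested, where 0.635% of all genes did. Arc, Jrk, Lgals2, Pla2g6 and Emp2 were higher (1.33%, with 0.301% of all genes), and Lypd2, Lynx1, Sstr3, Micall1, Snn and Rtn4r were lower (1.6%, with 0.334%). Of these, 7 were at least 2-fold (1.86%, with 0.277%). Without Lgals2, Lypd2 and Gm10345, and with Arc kept, the calls were 9 of 373 (2.41%), 5 of them at least 2-fold (1.34%). With the sex of the library as a further term, 13 flanking genes differed, where 1.52% of all genes did. In TKO against MKO, both guide virus groups, 71 differed (18.9%, with 13.3% of all genes), 36 higher (9.57%, with 6.48%) and 35 lower (9.31%, with 6.86%). Of these, 24 were at least 2-fold (6.38%, with 4.84% of all genes), 12 higher (3.19%, with 1.65%) and 12 lower (3.19%, with 3.18%). Without the same 3 genes they were 69 of 373 (18.5%) and 22 (5.9%). No library is shared between these comparisons, but both come from the same fit of all libraries, with a shared estimate of the spread. Called in both and in the same direction were 10 genes, all of the former list but Sstr3, which is 90.9% of the DKO list and 14.1% of the TKO list. The matching shares over all genes were not counted, so this overlap cannot be read as particular to the flanking genes. Across the 376 genes the log2 ratios of the comparisons had Pearson's r = 0.78 and Spearman's rho = 0.49, and across the other 11903 genes 0.30 and 0.29. The same sign was found for 66.2% of the flanking genes and 61.2% of the others. The flanking genes here include Lgals2 and Lypd2, which met the count minimum only through the genotype where they were high, and Arc, mainly so. All of these lie far out in both comparisons and weigh heavily on Pearson's r, which was not computed without them. Genes are not independent replicates, and these figures describe the points only.

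**Figure D3:**
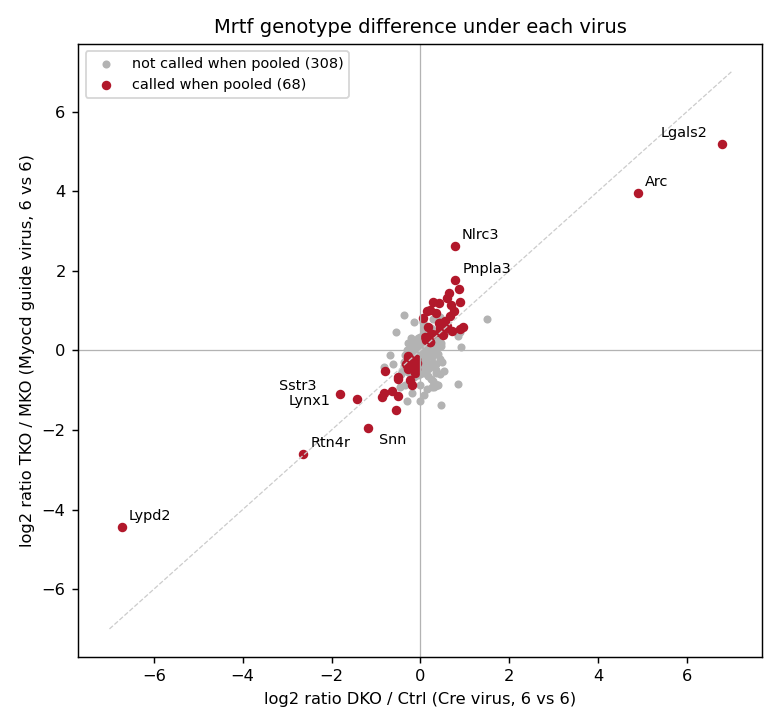
Fitted log2 ratio of DKO to Ctrl (Cre virus, x axis) and of TKO to MKO (guide virus, y axis) for the 376 tested flanking genes, with the 68 genes called in the pooled comparison in red and the diagonal dashed. Lypd2, Rtn4r, Arc and Lgals2 lie far out near the diagonal, and Nlrc3 and Pnpla3 lie above it; fitted ratios of Lypd2 and Lgals2, which rest on few reads in 1 genotype, depend on the fit's prior count.

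Nlrc3 (chr16:3946933-3976632, 9.28 Mb from Mrtfb), an intracellular receptor known as a brake on innate immune signalling, was high in TKO rather than in both mutant groups. It ranged from 0.739 to 3.78 CPM in Ctrl (median 1.17), 0.726 to 2.61 in MKO (median 2.09), 0.999 to 4.53 in DKO (median 2.53) and 5.31 to 17.8 in TKO (median 13.1). All TKO libraries were above all others, and DKO overlapped Ctrl and MKO. The pooled difference was 1.70 ± 0.27 (adjusted p = 1.67e-04), with 2.63 ± 0.37 in TKO against MKO (adjusted p = 2.81e-05) and 0.77 ± 0.41 in DKO against Ctrl (adjusted p = 0.534). The difference between the viruses, 1.86 ± 0.55, did not pass (adjusted p = 0.143). Nlrc3 is also expressed by lymphocytes; of 9 leukocyte markers 6 could be tested and none was called, and all 9 summed to between 5.47 and 14.3 CPM in Ctrl, between 6.26 and 27.8 in MKO, between 7.33 and 14 in DKO and between 9.76 and 14.3 in TKO. The part of leukocyte RNA in the Nlrc3 result was not tested.

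Among the other called genes around Mrtfa, 4 encode secreted proteins that are described next, 3 higher and 1 lower. Fbln1 (chr15:85206008-85286294), the matrix protein fibulin-1, ranged from 45.9 to 70.7 CPM in Ctrl (median 66.0), 53.1 to 104 in MKO (median 84.7), 57.0 to 151 in DKO (median 128) and 135 to 361 in TKO (median 220.2), and rose by 1.22 ± 0.16 (adjusted p = 1.35e-05). TKO lay above all intact libraries and DKO overlapped them. Scube1 (chr15:83602583-83725021), a secreted EGF-repeat protein, rose by 1.04 ± 0.19 (adjusted p = 7.81e-04), from medians of 5.90 CPM in Ctrl and 7.63 in MKO to 9.56 in DKO and 22 in TKO. C1qtnf6, a secreted relative of complement C1q, rose by 0.61 ± 0.11 (adjusted p = 5.31e-04), with 21.6 to 28.7 CPM in MKO and 33.5 to 57.4 in TKO, which did not overlap. Its Ctrl (16.8 to 28.9 CPM) and DKO (18.9 to 36.7) libraries overlapped, with a difference of 0.22 ± 0.16 that did not pass (adjusted p = 0.665). Fibroblasts also express these genes. Of 10 fibroblast markers 9 could be tested and none was called (median log2 difference -0.34), and the 10 summed to between 170 and 759 CPM in Ctrl, between 439 and 1210 in MKO, between 142 and 784 in DKO and between 321 and 414 in TKO. The part of fibroblast RNA in these rises was not tested.

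Pdgfb (chr15:79995876-80014808), the platelet-derived growth factor B chain made by endothelium and other cells, was lower by 1.02 ± 0.25 on the log2 scale (adjusted p = 0.01). Its range was 2.74 to 22.7 CPM in Ctrl (median 6.09), 7.18 to 19.4 in MKO (median 9.80), 3.96 to 7 in DKO (median 5.77) and 2.35 to 5.51 in TKO (median 4.34), so that DKO lay within Ctrl and TKO lay below MKO. None of 9 endothelial markers was called, with a median difference of -0.50, and they summed to between 135 and 1400 CPM in Ctrl, between 536 and 1170 in MKO, between 184 and 726 in DKO and between 137 and 537 in TKO. Of 7 markers of smooth muscle and pericytes, all tested, Abcc9 was called, with a log2 difference of -0.61, and the median was -0.58. The 7 summed to between 475 and 817 CPM in Ctrl and between 635 and 815 in MKO. In DKO they summed to between 195 and 626 CPM and in TKO to between 401 and 668. The part of endothelial, smooth muscle or pericyte RNA in the Pdgfb difference was not tested. In bulk RNA fewer cells of a type and less RNA per cell cannot be told apart.

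Pnpla3 (chr15:84167816-84189521), an acylhydrolase of lipid droplets, rose by 1.28 ± 0.23 (adjusted p = 5.06e-04), from 18.8 to 31.5 CPM in Ctrl (median 25.2) and 8.93 to 38.7 in MKO (median 23.4) to 15 to 60.6 in DKO (median 46.8) and 37.6 to 137 in TKO (median 69.0). TKO lay above Ctrl, and the ranges of DKO and MKO overlapped all others. Tspo (chr15:83563573-83574203), a cholesterol-binding protein of the outer mitochondrial membrane, rose by 0.77 ± 0.12 (adjusted p = 6.51e-05), and lay between 37.5 and 48.05 CPM in Ctrl, between 41.9 and 55.5 in MKO, between 50.4 and 127 in DKO and between 78.3 and 103 in TKO. DKO 1 was the highest library at 127 CPM. Without DKO 1 and Ctrl 3 the rise of Tspo was 0.65 ± 0.06, and 0.41 ± 0.09 in DKO against Ctrl (adjusted p = 0.024).

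Tspo is the last of 3 adjacent called genes within 47.3 kb, after Bik, a pro-apoptotic BH3-only protein, and Mcat, a mitochondrial malonyltransferase of fatty acid synthesis. Bik fell by 0.61 ± 0.14 (adjusted p = 0.00621) and Mcat by 0.30 ± 0.08 (adjusted p = 0.0123), while Tspo rose. Tst, the sulfurtransferase rhodanese, fell by 0.83 ± 0.15 (adjusted p = 7.81e-04), from medians of 5.72 CPM in Ctrl and 6.09 in MKO to 3.68 in DKO and 2.52 in TKO. The lactate and pyruvate carrier gene Slc16a8 rose by 0.78 ± 0.17 (adjusted p = 0.00359), at 0.502 to 1.74 CPM in intact and 1.41 to 3.20 in mutant libraries.

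Around Mrtfb, the called genes beyond those above include enzymes, a channel and RNA-binding proteins. St6gal1 (chr16:23224740-23360350, 9.81 Mb away), which adds sialic acid to glycoproteins, lay between 10.4 and 13.02 CPM in Ctrl, between 10.3 and 13.5 in MKO, between 3.40 and 9.71 in DKO and between 3.23 and 7.64 in TKO, and fell by 0.82 ± 0.13 (adjusted p = 1.98e-04). It did not overlap between mutant and intact libraries. Igf2bp2, an RNA-binding protein that stabilises mRNAs, rose by 0.76 ± 0.12 (adjusted p = 8.03e-05), and its TKO libraries (22.5 to 36.4 CPM) lay above those of Ctrl (7.33 to 15.7), MKO (10.7 to 14.7) and DKO (11 to 20.3).

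P2rx6, an ATP-gated cation channel subunit, rose by 0.88 ± 0.15 (adjusted p = 3.59e-04), from medians of 3.58 and 3.19 CPM in Ctrl and MKO to 5.88 and 5.87 in DKO and TKO. Mpv17l, a membrane protein of peroxisomes and mitochondria, rose by 0.96 ± 0.17 (adjusted p = 5.6e-04), and lies 0.523 Mb from Mrtfb. Ypel1, a member of the Yippee zinc-binding family, rose by 0.91 ± 0.19 (adjusted p = 0.00202) and shares exonic bases with Ppil2. Abat, the transaminase that breaks down GABA, rose by 0.80 ± 0.21 (adjusted p = 0.0131), and by 0.69 ± 0.23 with the sex of the library in the fit, which did not pass (adjusted p = 0.0517). Rbfox1, a splicing regulator of muscle and brain, fell by 0.53 ± 0.11 (adjusted p = 0.00258), with 13.3 to 21.4 CPM in TKO and 24.6 to 31.9 in MKO. Its DKO libraries (21.1 to 45.9 CPM) overlapped those of Ctrl (25.4 to 36.7), with a difference of -0.18 ± 0.16 (adjusted p = 0.742). Fam100a and Ehhadh, a peroxisomal enzyme of fatty acid oxidation, fell by 0.34 ± 0.10 and 0.33 ± 0.10 (adjusted p = 0.0297 and 0.0315), and these calls were lost under 8 and 9 of 31 alternative settings.

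Of the 16 nearest tested genes with a name, 4 on each side of each locus, 2 differed, where 10.8% of all genes tested did, so this count is near the background. Tab1, an activator of the kinase TAK1 that lies 0.851 Mb from Mrtfa, rose by 0.21 ± 0.05 (adjusted p = 0.00877), from medians of 75.0 and 72.6 CPM in Ctrl and MKO to 86.0 and 82.7 in DKO and TKO. Cpped1, a phosphatase 1.35 Mb from Mrtfb, fell by 0.16 ± 0.05 (adjusted p = 0.0347), a call lost under 15 of 31 alternatives. Sgsm3, whose exons overlap the end of Mkl1, differed by -0.08 ± 0.07 (adjusted p = 0.466), and Adsl, an enzyme of purine synthesis, by -0.14 ± 0.07 (adjusted p = 0.186). Next to Mrtfb, the DNA repair nuclease gene Ercc4 differed by 0.03 ± 0.07 (adjusted p = 0.841) and the poly(A) nuclease gene Parn by 0.07 ± 0.10 (adjusted p = 0.684). The remaining 10, Tnrc6b, Smcr7l, Slc25a17, St13, Xpnpep3, Snx29, Gspt1, Bfar, Rrn3 and Ntan1, differed by between -0.48 and 0.14. The clone-named 2310015D24Rik, 0.0966 Mb from Mrtfb and thus closer than Ercc4 and Parn, rose by 1.05 ± 0.24 (adjusted p = 0.00546), at 1.67 to 3.66 CPM in intact and 1.26 to 10.04 CPM in mutant libraries, with overlap.

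**Figure D4:**
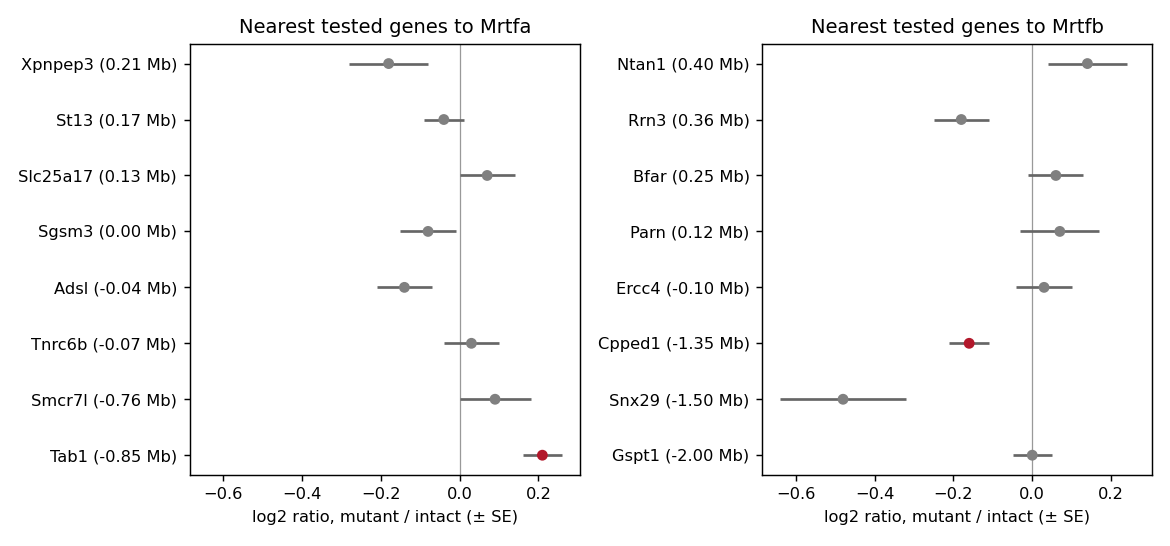
Log2 ratio of mutant to intact libraries with its standard error for the 8 nearest named genes of each locus, with the signed distance in Mb in brackets and called genes in red. Only Tab1 (0.21) and Cpped1 (-0.16) are called, and the other 14 lie between -0.48 and 0.14.

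The share of called genes did not fall steadily with distance. Around Mrtfa it was 26.2% within 2.5 Mb (22 of 84), 11.4% from 2.5 to 5 Mb (8 of 70), 25.9% from 5 to 7.5 Mb (7 of 27) and 8.57% farther out (3 of 35), with 12.3% on the rest of chromosome 15 (32 of 261). Around Mrtfb the shares were 16.7% (5 of 30), 21.6% (11 of 51), 7.14% (2 of 28) and 19.6% (10 of 51), with 12% on the rest of chromosome 16 (28 of 233). On all other chromosomes 10.5% of genes were called. In DKO against Ctrl the Mrtfa bins held 4, 0, 4 and 0 calls and the Mrtfb bins 1, 2, 0 and 0, with 1 of 261 and 4 of 233 on the rest of the 2 chromosomes and 0.509% elsewhere. All 8 DKO against Ctrl calls around Mrtfa lay on the side of lower coordinates (8 of 125, 6.4%), and none of 90 lay on the other side. The other comparisons did not show this. Pooled calls were 25 of 125 (20%) on the lower side and 15 of 90 (16.7%) on the other. TKO against MKO gave 25 of 125 (20%) and 16 of 90 (17.8%). Over both loci together the pooled shares were 23.7%, 15.7%, 16.4% and 15.1% from the nearest to the farthest bin. In the 22 libraries without DKO 1 and Ctrl 3, 16.6% of genes on other chromosomes were called. There the Mrtfa bins held 33.3% (28 of 84), 14.3%, 29.6% and 11.4%. The Mrtfb bins held 19.4%, 27.5%, 10.7% and 35.3% (18 of 51).

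**Figure D5:**
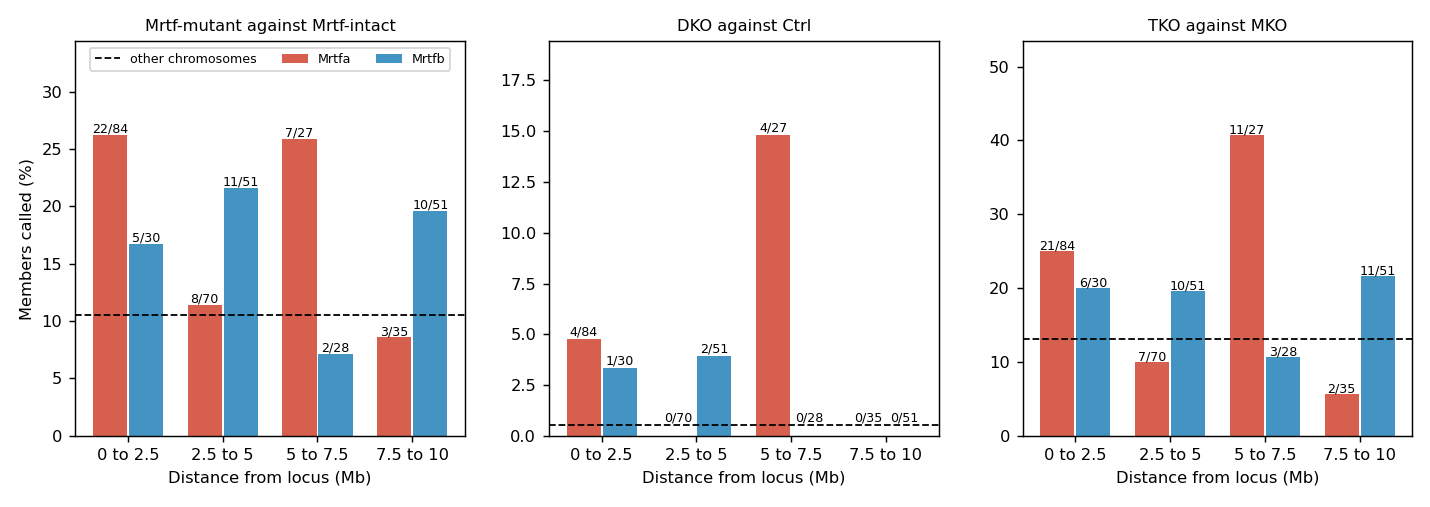
Percent of tested flanking genes called (bars, with called and tested genes above them) in 4 bins of distance in Mb from Mrtfa (red) and Mrtfb (blue), for the pooled comparison, DKO against Ctrl and TKO against MKO, each on its own axis from 0, with the share on other chromosomes dashed. The bin of 5 to 7.5 Mb from Mrtfa, which holds Arc to Lynx1, is the highest in the latter 2 panels at 4 and 11 of 27 genes.

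The window bounds do not mark an end of called genes on chromosome 16. St6gal1 lies just inside, and just outside lies Masp1, a protease of the complement lectin pathway, which differed by 0.90 ± 0.09 (adjusted p = 9.67e-08). At the other bounds Col22a1, Abcd2 and Zfp263 just inside (0.26 ± 0.34, 0.25 ± 0.19 and 0.10 ± 0.08) and Khdrbs3 and Lrrk2 just outside (0.36 ± 0.21 and -0.01 ± 0.09) were not called.

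The comparisons that cross virus and genotype share groups with those above. In DKO against MKO 14 flanking genes differed (3.72%, with 0.79% of all genes), 9 higher (2.39%, with 0.301%) and 5 lower (1.33%, with 0.489%). That number was 8 without MKO 3 or MKO 6 and 9 without MKO 1, MKO 4 or any one of DKO 2 to DKO 6, where between 0.429% and 0.764% of all genes were called. In TKO against Ctrl 71 differed (18.9%, with 14.1%), 38 higher (with 8.14% of all genes) and 33 lower (8.78%, with 5.98%), and 18 of the higher ones were at least 2-fold (4.79%, with 2.23%). Within one genotype, MKO against Ctrl gave 0 calls with edgeR (0% of all genes) and 0 with DESeq2; 16 of 376 flanking genes (4.26%) and 762 of all genes (6.2%) had an unadjusted p under 0.05. TKO against DKO gave 24 calls (6.38%, with 6.38% of all genes), 16 higher (4.26%, with 4.16%) and 8 lower (2.13%, with 2.22%). At least 2-fold were 5 genes (1.33%, with 1.37% of all genes), all higher in TKO (with 0.953%). These were Nlrc3 (2.20), Scx, a tendon transcription factor (1.22), Scube1 (1.06), Abat (1.03) and Fbln1 (1.02), with log2 differences in brackets. For the interaction, the difference between TKO against MKO and DKO against Ctrl, 0 flanking genes were called with edgeR and 5 with DESeq2, where 0.464% and 0.801% of all genes were called. An unadjusted p under 0.05 was found for 38 of 376 flanking genes, with 12.4% of all genes, and the smallest adjusted p was 0.0592, of the efflux pump gene Abcc1. The interaction gave 15 calls without Ctrl 2 (with 4.74% of all genes), 6 without DKO 1 (with 1.63%) and 1 without Ctrl 5 or DKO 4 (with 0.437% and 0.308%).

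Flanking genes were also counted by function, in lists chosen with earlier results of these data known. Their counts are to be set beside the 10.8% of all genes that were called, 6.08% higher and 4.75% lower. Of 6 tested genes of the Ly6 and uPAR family around Mrtfa, Lynx1 and Lypd2 fell and the median log2 difference was -0.43. Ly6a, Ly6c1, Ly6e and Gpihbp1, which endothelium expresses, differed by -0.25 ± 0.25, -0.34 ± 0.28, -0.51 ± 0.25 and -0.24 ± 0.30 and did not pass. The mouse genes of the human 22q11 deletion region, whose loss is known for heart defects, numbered 27 among the Mrtfb-flanking genes tested, of which 2 rose, Slc25a1 among them, Zdhhc8 and Rtn4r fell and 23 did not pass (median -0.03). Among those not called were Dgcr8 of microRNA processing (-0.11 ± 0.08) and the histone chaperone gene Hira (-0.13 ± 0.09).

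Of 24 genes listed as mitochondrial, Slc25a1, Tspo, Sdf2l1 and Abat rose and 5 fell, among them Mcat, Trap1, Dnaja3 and Tst (median 0.01). Sdf2l1 is known as a protein of the endoplasmic reticulum. The chaperone genes Trap1 and Dnaja3 fell by 0.24 ± 0.06 and 0.28 ± 0.07. Of 22 genes of muscle, cytoskeleton and adhesion, Fbln1 and Emp2 rose and Ptk2, focal adhesion kinase, fell by 0.33 ± 0.10, with a median of -0.03. The non-muscle and smooth muscle myosin genes Myh9 and Myh11 differed by -0.44 ± 0.26 and -0.23 ± 0.36 and were not called.

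Of 40 genes of transcription, chromatin and RNA, 6 rose, among them Cbx6, Jrk, Eif4a2, Igf2bp2 and Hdac10, and Cbx7 and Rbfox1 fell (median 0.07). The acetyltransferase genes Ep300 and Crebbp differed by -0.04 ± 0.08 and -0.05 ± 0.15 and were not called. Of 22 kinase and signalling genes, Mapk12, Tab1 and Arc rose and Ptk2, Adcy9, Pdgfb and Rtn4r fell (median -0.08). Mapk12, the p38 gamma kinase of striated muscle, rose by 0.65 ± 0.10 (adjusted p = 1.3e-04). Of 7 tested genes of innate immunity, Nlrc3 was called and the median was 0.00. Over all 12281 genes the median was also 0.00.

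The authors' deposited tables, which give their own fits, were read for the same 378 genes. Their mean normalized counts equal those of the 2 groups compared without Ctrl 3 and DKO 1, so that all but the TKO against MKO table, which holds neither group, rest on fewer than 12 libraries. In the authors' deposited table of DKO against Ctrl 21 flanking genes had an adjusted p under 0.05 (5.56%, with 1.8% of all genes in it). The authors' deposited tables of TKO against MKO and TKO against Ctrl gave 111 (29.4%, with 20.8%) and 81 (21.4%, with 15.8%). Those of DKO against MKO, TKO against DKO and MKO against Ctrl gave 42 (11.1%, with 3.69%), 42 (11.1%, with 11.5%) and 0 (0%, with 0.11%). In the authors' deposited table of DKO against Ctrl, Arc rose by 5.33 ± 0.46 and Rtn4r fell by 2.71 ± 0.43.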

How the data were processed

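Polyadenylated RNA of 24 sorted cardiomyocyte libraries (SMART-Seq v4 and Nextera XT, unstranded) was measured, 6 per group taken from the titles. The authors deposited read counts per gene; the submitters' processing notes name STAR, featureCounts, DESeq2 and mm10. The authors' deposited comparison tables give log2 fold changes with adjusted p-values. Counts were tested with edgeR 4.0.16 (R 4.3.3): TMM, filterByExpr with a minimum count of 10, 1 coefficient per group, two-sided quasi-likelihood test, Benjamini-Hochberg adjustment over 12281 genes. Errors of log2 values are standard errors. In simulated data with 12281 genes, 67 genes were changed 1.5-fold, 67 2-fold and 66 4-fold. This pooled comparison recovered 67.2%, 86.6% and 100% of them, with 7 false calls. A larger share, 10.8% of genes, was called in the real data, so the rates there can differ. Gene positions are the count table's.

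Members, lists and tests were chosen with earlier results of these data known. The rule named 6 leading genes, per locus the 6 largest called rises and falls with the same sign under both viruses and at least 1 CPM, the 4 nearest genes a side, and 2 called genes per list; clone names were left out, and some genes are not reported here. Other genes were named after their values were seen. Alternatives were RLE scaling, other low-count filters, DESeq2 1.42.0, a replicate block, 22 libraries (without Ctrl 3 and DKO 1), only the 2 groups compared, each library left out, genes within 5 Mb and, added after seeing the data, sex. Libraries of a group differed beyond sampling noise in all 60 pairs (chi-square per gene 6.58 to 106).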

Additional observations from a re-analysis of the deposited data

Results flagged for a closer look

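Among the 43 named flanking genes, each group of 6 libraries was searched for a library far from the other 5 by Dixon's gap test at its 95% limit, on log2(CPM + 1). Of 172 groups 16 were flagged, and chance flags about 1 in 20 groups. DKO 1, the shallowest library, gave 9 of them. It was the highest of its group for Tst (7.99 CPM, with 3.02 to 4.2 in the others), Adsl (222, with 153 to 172), Rbfox1 (45.9, with 21.1 to 25.7), Bfar (106, with 71.5 to 80.0) and Tspo (127, with 50.4 to 59.8). DKO 1 was the lowest for Smcr7l (36.4 CPM, with 62.5 to 75.6), Xpnpep3 (7.59, with 13.4 to 17.8), Parn (15, with 27.9 to 34.8) and Rrn3 (53.1, with 80.6 to 92.0).

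Lypd2 stood at 0.158 CPM in TKO 1 and at 0 in the other 5 TKO libraries. Ctrl 2 was high for Nlrc3 (3.78 CPM, with 0.739 to 1.23 in the others) and low for Fbln1 (45.9, with 62.1 to 70.7). MKO 3 was high for Micall1 (229 CPM, with 172 to 185) and low for Tnrc6b (39.0, with 46.2 to 50.1). Igf2bp2 was low in Ctrl 5 (7.33 CPM, with 12 to 15.7) and Snx29 low in DKO 6 (2.28, with 3.40 to 3.97).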

How the results depend on the processing

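Counts of called flanking genes were refitted under each alternative. The share of all genes called in the same fit is in brackets. DKO against Ctrl moved from 11 (0.635%) to 20 with DESeq2 (0.694%). DKO against MKO moved from 14 (0.79%) to 22 with DESeq2 (1.04%) and to 6 with only the 2 groups in the fit (0.401%). With a sex term DKO against Ctrl gave 13 (1.52%) and DKO against MKO 17 (2.98%), so the share of all genes rose more than these counts. TKO against DKO moved from 24 (6.38%) to 37 in the 22 libraries without Ctrl 3 and DKO 1 (10%), to 39 with a sex term (10%) and to 7 with only the 2 groups (2.25%). The interaction moved from 0 (0.464%) to 1 with RLE scaling (0.489%), 5 with DESeq2 (0.801%), 3 with the replicate block (1.42%), 2 in the 22 libraries (1.05%) and 1 with a sex term (0.806%); the cause of these moves was not tested. Replicate numbers did not pair the libraries: correlations of same-numbered libraries lay between -0.25 and 0.69, and 5 of 24 libraries correlated best with their own number. With the replicate block the pooled count was 69 (11.8%) and that of DKO against Ctrl 12 (0.774%).

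With each library left out in turn, the share of all genes called in the same fit is again in brackets. Counts ranged from 56 (8.71%) to 84 (15.9%) in the pooled comparison and from 9 (0.446% to 0.526%) to 14 (1%) in DKO against Ctrl. They ranged from 52 (10.6%) to 104 (22%) in TKO against MKO and from 60 (12.1%) to 102 (22.7%) in TKO against Ctrl. DKO against MKO gave 8 (0.429% and 0.47%) to 15 (1.04%), and TKO against DKO 21 (4.76%) to 35 (8.9%). MKO against Ctrl stayed at 0 (0% to 0.0081%), and the interaction gave 0 (0.114% to 0.445%) to 15 (4.74%). Pooled counts ranged from 34 (8.71% and 9.57%) to 45 (15.9%) around Mrtfa and from 22 (8.71%) to 39 (15.9%) around Mrtfb. The interaction reached 15 without Ctrl 2 and 6 without DKO 1. The other highest values above 0 came without DKO 1. DKO against MKO had its lowest value without MKO 3 or MKO 6, and the pooled count without Ctrl 6. Of the 43 named genes over 31 alternatives each, Cpped1, Ehhadh and Fam100a lost their call in 15, 9 and 8, and Adsl and Snx29 gained one in 2 and 4; Abat lost and Rrn3 gained a call with a sex term. No gene that was called changed direction. Low counts limit the folds of Lgals2 and Lypd2, with 3 intact and 2 mutant reads.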
